A study of Mus musculus with 20 samples.

Results

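The 37 genes described here encode methyltransferases that take their methyl group from S-adenosylmethionine and place it on histones and other proteins, on DNA or on RNA. They were taken from a fixed list of such enzymes, and all 37 were found among the 21631 protein-coding genes of chromosomes 1 to 19 and X. Chromatin accessibility was measured by ATAC-seq, in which a transposase inserts sequencing adapters into open DNA, in C2C12, a line of mouse myoblasts, the precursors that fuse into muscle fibres. The cells were wild type (WT) or knocked out for Setd2 (KO), the gene of a histone H3 lysine 36 methyltransferase. D0 was sampled in 1 state, and D1 and D5 each in control (CTL) and methionine restriction (MR), giving the groups WT D0, WT D1 CTL, WT D1 MR, WT D5 CTL, WT D5 MR and the same 5 for KO. Each of the 10 groups held 2 libraries, replicates 1 and 2 for WT and lines 1 and 2 for KO. The same KO lines recur in every KO group, so each line is 1 genetic background in each group. Nothing in the labels says that WT replicates came from separate cultures, so p-values measure only the spread between these libraries, which may be technical. Below, paired values are given for replicate 1 then 2, or line 1 then 2.

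S-adenosylmethionine is made from methionine, and each methyl transfer turns it into S-adenosylhomocysteine, which inhibits many methyltransferases. The enzymes listed here therefore share a substrate whose supply depends on methionine. In muscle cells, Polycomb H3 lysine 27 methylation is known to hold differentiation genes silent in myoblasts, and KMT2 and SMYD enzymes to act at muscle genes. ATAC-seq reads whether the DNA around the genes is open, and says nothing of the level or the activity of the enzymes.

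Below, a call means that a library had at least 1 peak within 1 kb of either outer end of a gene. The lists held 20847 to 69881 peaks in 18 libraries, and 644 and 1881 peaks in the D5 CTL and D5 MR libraries of KO line 1. Those 2 lists were left out of the tests, so KO at D5 rests on line 2 alone. Setd2 had a gene-end peak in 18 of 18 libraries, in 10 WT and 8 KO, which does not measure the edit. Of 8 myogenic markers, Des, Cdh15 and Chrna1 were called in 18 of 18 libraries and Myod1 in 17, while Pax7, Pax3 and Myf5 were called in 0. Myog, the myogenin gene, was called in 8 of 10 WT libraries and 0 of 8 from KO. Among the markers of other cell types reported here, Krt14 was called in 8 libraries, Snap25 in 3, and Plin1 and Sox10 in 1 each, while 8 more were called in 0.

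The promoter windows of 5 members named in the results below are shown. They run from 250 bases before to 50 bases after a RefSeq start (assembly GRCm38.p6), 5′ to 3′ on the strand of the gene, and capitals mark the bases under the peak of 1 named library. Smyd1 is shown with the peak of WT D1 MR replicate 1, Ezh1 with that of the same library, Dnmt1 with that of WT D0 replicate 2, Dnmt3a with that of WT D1 CTL replicate 1 and Setd6 with that of WT D1 MR replicate 1.
Smyd1, chr6:71262232-71262531, minus strand: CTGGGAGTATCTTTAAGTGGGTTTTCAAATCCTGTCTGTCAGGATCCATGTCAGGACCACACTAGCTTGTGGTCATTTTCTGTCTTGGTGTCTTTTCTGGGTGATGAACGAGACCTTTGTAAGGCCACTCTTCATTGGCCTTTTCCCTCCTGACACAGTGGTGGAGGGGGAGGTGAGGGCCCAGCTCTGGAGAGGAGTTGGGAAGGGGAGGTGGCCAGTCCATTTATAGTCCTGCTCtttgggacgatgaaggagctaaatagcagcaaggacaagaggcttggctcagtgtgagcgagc
Ezh1, chr11:101226414-101226713, minus strand: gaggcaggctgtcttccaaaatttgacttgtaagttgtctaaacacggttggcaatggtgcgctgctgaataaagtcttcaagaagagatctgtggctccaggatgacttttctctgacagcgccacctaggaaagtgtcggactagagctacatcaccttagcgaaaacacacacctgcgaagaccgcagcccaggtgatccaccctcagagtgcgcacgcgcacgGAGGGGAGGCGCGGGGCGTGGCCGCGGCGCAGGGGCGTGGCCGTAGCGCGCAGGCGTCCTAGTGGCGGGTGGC
Dnmt1, chr9:20952930-20953229, minus strand: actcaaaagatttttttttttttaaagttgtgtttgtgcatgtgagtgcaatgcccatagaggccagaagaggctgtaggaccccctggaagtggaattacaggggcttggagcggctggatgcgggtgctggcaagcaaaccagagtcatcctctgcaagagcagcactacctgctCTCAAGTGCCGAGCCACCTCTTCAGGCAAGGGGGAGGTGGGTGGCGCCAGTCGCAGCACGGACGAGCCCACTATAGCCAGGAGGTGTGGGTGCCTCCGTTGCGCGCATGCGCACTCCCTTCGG
Dnmt3a, chr12:3806730-3807029, plus strand: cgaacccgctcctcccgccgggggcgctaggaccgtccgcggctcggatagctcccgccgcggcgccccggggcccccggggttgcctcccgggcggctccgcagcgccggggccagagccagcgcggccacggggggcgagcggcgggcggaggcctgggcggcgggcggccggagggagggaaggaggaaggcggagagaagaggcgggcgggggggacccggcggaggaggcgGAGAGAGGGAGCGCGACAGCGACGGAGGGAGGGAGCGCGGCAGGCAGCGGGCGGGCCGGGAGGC
Setd6, chr8:95715663-95715962, plus strand: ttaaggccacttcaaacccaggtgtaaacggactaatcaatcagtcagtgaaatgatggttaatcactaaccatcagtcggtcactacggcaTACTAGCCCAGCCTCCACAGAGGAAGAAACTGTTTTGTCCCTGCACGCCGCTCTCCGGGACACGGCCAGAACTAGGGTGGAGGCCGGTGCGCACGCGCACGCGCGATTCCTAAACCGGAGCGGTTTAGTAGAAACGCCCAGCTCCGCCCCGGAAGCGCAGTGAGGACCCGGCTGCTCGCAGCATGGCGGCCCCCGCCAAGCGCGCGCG
The Smyd1 peak covered 237 of the 300 bases and lay before the start. The Ezh1 and Dnmt3a peaks covered 73 and 64 bases, at the start itself. The marked Dnmt3a bases belong to the region chr12:3806944-3807087, which did not pass between genotypes (adjusted p = 0.126, exact permutation). The region near this start that passed, chr12:3806286-3806573, lies outside the window. In Dnmt1 the peak covered 123 bases, and in Setd6 208 bases.

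The Smyd1 window was the poorest in CpG among the 5, with an observed over expected CpG ratio of 0.16, against 0.88 in Ezh1, 0.50 in Dnmt1, 0.96 in Dnmt3a and 1.04 in Setd6. The median over 21045 windows of protein-coding genes was 0.57. Over the 16 members that were called in every library and had a window, the median ratio was 0.94, taking the highest window of each gene. Over 10 such members called in some libraries it was 0.79, and over 5 never called at their outer ends it was 0.92. Motifs were searched on both strands. The E-box CANNTG, the letters bound by myogenic basic helix-loop-helix factors, was absent from the Smyd1 and Dnmt3a windows, present 2 times in those of Ezh1 and Dnmt1 and once in that of Setd6, and held by 69% of all windows. The letters GGGCGG occurred 6 times in the Dnmt3a window, in 68.4% of 38 member windows and in 46.7% of all windows. The MEF2 motif occurred in 0 of 38 member windows and in 0.494% of all windows.

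Gene-end peaks were found at most members. Of the 37 genes, 19 were called in all 18 libraries of usual depth, 13 in 1 to 17 and 5 in 0. Over all 21631 protein-coding genes, 5569 were called in all 18. The called members included the Polycomb enzyme Ezh2, the H3 lysine 4 enzymes Kmt2b, Kmt2c, Kmt2d and Setd1a, and their relative Kmt2e. They also included Setd3, which methylates actin, Setd6 and Setd7, and the H3 lysine 9 enzymes Ehmt2 and Suv39h1 with the related Setdb2. Dot1l, the H3 lysine 79 enzyme, the arginine methyltransferases Prmt1, Prmt5, Prmt6, Prmt7 and Carm1, and Smyd4 made up the rest. Because genes are read from both ends and can lie close together, 10 of the 37 had a peak that also lay within 1 kb of the end of another gene. For Kmt2d this is Prkag1, for Setd1a Hsd3b7, for Setd6 Ndrg4, for Setd3 Ccnk and for Smyd4 Rpa1, and such peaks cannot be assigned to 1 of the genes.

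**Figure D1:**
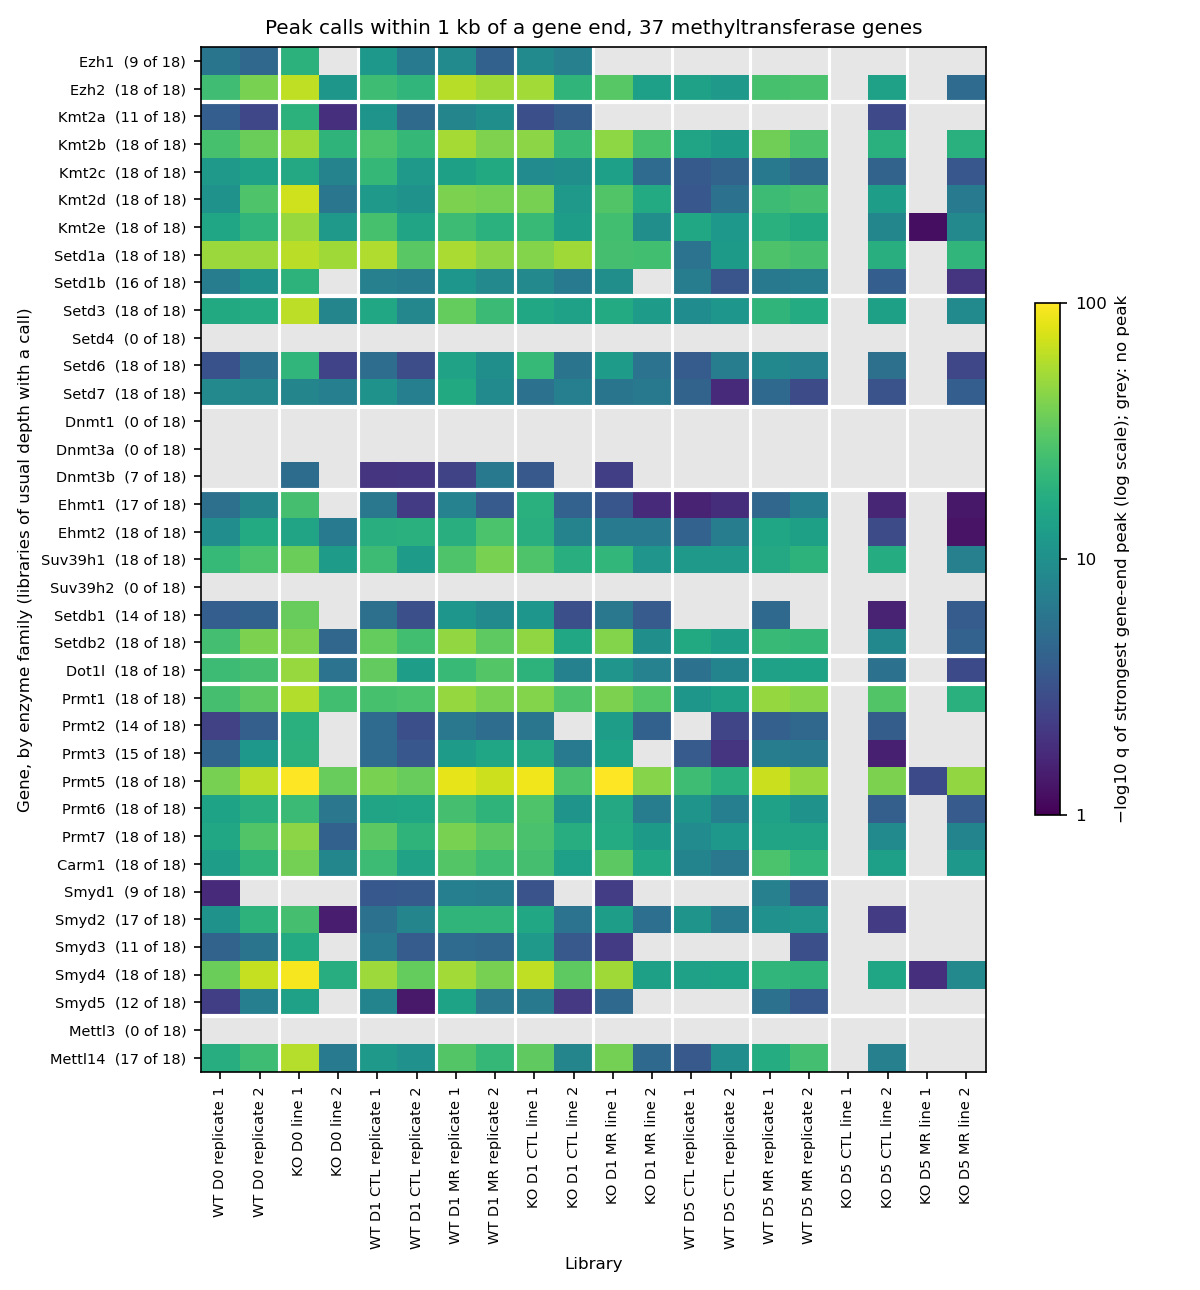
Each row is 1 of the 37 genes, grouped by enzyme family, and each column 1 of the 20 libraries; colour gives the −log10 q of the strongest peak within 1 kb of a gene end on a log scale, and grey marks no peak. The D5 CTL list of KO line 1 holds 0 called members, the D5 MR list of that line 3, and Setd4, Dnmt1, Dnmt3a, Suv39h2 and Mettl3 are grey in every column.

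The 5 members never called at their outer ends were Dnmt1, Dnmt3a, Mettl3, Setd4 and Suv39h2. For 3 of them the outer end was not the start that carried a peak. Dnmt1, the maintenance DNA methyltransferase, had a peak within 1 kb of its start at 20952979 in 16 of 18 libraries and within 1 kb of the start at 20952623 in 18 of 18, and in 0 at its outer end at 20959888. Mettl3, the catalytic subunit of the RNA m6A writer, had a peak within 1 kb of its start at 52305124 on chromosome 14 in 16 of 18 libraries, missing from KO D0 line 2 and WT D5 CTL replicate 2. Its peak was 157 to 497 bp wide, and its partner Mettl14 was called in 17 of 18 libraries at its own end. Dnmt3a, a de novo DNA methyltransferase, had a peak within 1 kb of its start at 3806980 in 12 of 18 libraries, which are described below. Setd4 and Suv39h2 had no peak within 1 kb of a listed start either.

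Among the members called in every library, the strength of the peak differed widely. Strength is given as the percentile of the peak's −log10 p among the 5569 genes that were called in all 18 libraries, ranked within each library. Prmt5, which deposits symmetric arginine dimethylation, had the highest median, 94.0 with a range from 82.2 to 99.7. Smyd4 followed at 82.1 (54.4 to 94.5), Setd1a at 80.6 (29.1 to 99.6), Prmt1 at 75.8 (59.1 to 93.7) and Kmt2b at 74.4 (61.8 to 89.5). The ranges of these neighbours overlap, so their order is not set by these data. The ranked Setd1a peak lay at the far end of the gene, near Hsd3b7, in all 18 libraries, with a median −log10 q of 36.6. The start of Setd1a had a peak within 1 kb in 16 of 18 libraries, with a median of 8.91. At the foot of the order stood Ehmt2 at 19.6 (0.79 to 58.1), Kmt2c at 18.1 (1.89 to 46.1), Setd6 at 11.1 (0.39 to 43.3) and Setd7 at 8.23 (0.23 to 40.2). Widths followed another order, with medians from 154 bp at Ehmt2 to 817.5 bp at Kmt2e.

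How many members were called moved with the length of the list, and so did the share of all genes. Of all genes, 34.26% were called in KO D5 MR line 2 and 52.94% in WT D1 MR replicate 1, the lowest and highest shares of the 18 libraries. The shares of members there were 59.46% and 86.49%. In WT D5, 36.04% and 34.65% of all genes were called in CTL and 44.23% and 44.52% in MR. WT D1 lists held 32 called members in each of 4 libraries, in CTL and in MR. At WT D5 the count was 24 and 25 in CTL and 28 and 28 in MR, where lists held 22465 and 20847 peaks in CTL and 39538 and 39263 in MR. In KO the counts were 32 and 29 in D1 CTL, 30 and 24 in D1 MR, 31 and 22 at D0, and, in line 2 alone, 27 in D5 CTL and 22 in D5 MR. The MR libraries thus held more called members than CTL in WT at D5, as many in WT at D1 and fewer in each KO line at D1 and in line 2 at D5, and list length differed in the same direction wherever the counts differed. With only the 20000 strongest peaks kept per list, 17 to 26 members were called per library, with 23 and 23 in WT D5 CTL and 20 and 22 in WT D5 MR.

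**Figure D2:**
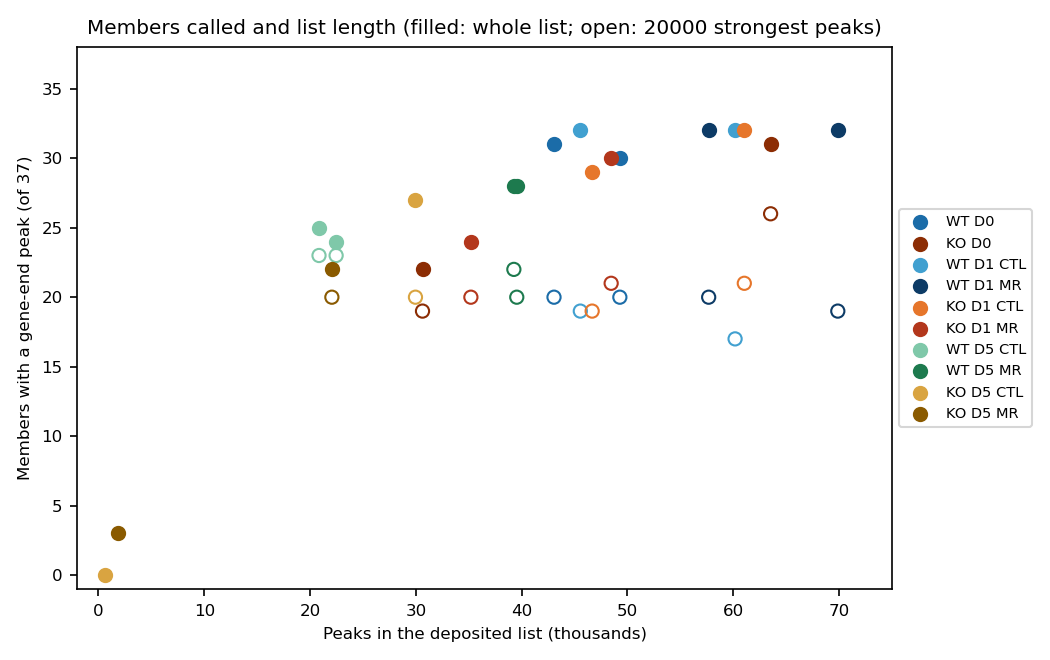
Filled points give the number of the 37 members called in each library against the number of peaks in its list, in units of 1000 peaks; open circles give the same libraries with only the 20000 strongest peaks kept. Filled points range from 0 to 32 and climb with list length, while open circles lie between 17 and 26.

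Methionine restriction was compared within WT D1, WT D5 and KO D1. In the test of calls, 0 of 37 members could reach a p of 0.05, so the comparison is a description for all of them. Over all genes 218 could be tested, 0% passed the adjusted threshold in the exact permutation test, and 7.34% had an unadjusted p under 0.05. Counted without a test, Smyd1 and Smyd5 were called in both WT D5 MR libraries and in neither WT D5 CTL library, which held for 5.92% of all genes. Ezh1 and Kmt2a were called in both KO D1 CTL libraries and in neither KO D1 MR library, which held for 1.46% of all genes. At WT D1, 0 members split this way, against 1.84% of all genes gained and 0.208% lost. In the directions with 0 members at WT D5 and KO D1, the shares of all genes were 0.153% lost and 0.0416% gained. With only the 20000 strongest peaks of each list, none of these 4 genes split between MR and CTL. Their peaks were then mostly cut away, with calls in 0 of 18 libraries for Smyd5, 1 for Smyd1, 1 for Kmt2a and 2 for Ezh1. Smyd1, Smyd5 and Kmt2a could therefore not split, and the part of list length was not tested. Kmt2c was called there in both WT D5 CTL libraries and in neither WT D5 MR library, as for 2.77% of all genes.

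Smyd1 encodes a methyltransferase of skeletal and cardiac muscle that takes part in sarcomere assembly. Its gene-end peak was found in 9 of 18 libraries. It was 79 bp wide in WT D0 replicate 1, absent from replicate 2, 329 and 242 bp in WT D1 CTL, 323 and 297 bp in WT D1 MR, and 423 and 366 bp in WT D5 MR. No peak was called in either WT D5 CTL library. In KO the peak was seen only in line 1 at D1, with 285 bp in CTL and 262 bp in MR. All 9 peaks were weak, with −log10 q from 1.76 to 7.38. Smyd5, which encodes a relative with a SET domain, had peaks of 70 to 172 bp in 12 libraries. It was absent from KO D0 line 2, KO D1 MR line 2, both WT D5 CTL libraries and the KO D5 libraries of line 2.

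Ezh1 and Ezh2 are the 2 catalytic subunits of Polycomb repressive complex 2. Ezh1 had a narrow peak of 67 to 131 bp in both libraries of WT D0, WT D1 CTL, WT D1 MR and KO D1 CTL, and in KO D0 line 1. It was absent from KO D0 line 2, both KO D1 MR libraries and all 6 D5 libraries of usual depth. Ezh2 was called in every one of these libraries, at a median width of 276.5 bp. Kmt2a, an H3 lysine 4 methyltransferase, had a peak in both libraries of each D0 and D1 group except KO D1 MR, where both lacked it. At D5 it was called only in KO D5 CTL line 2. Its peak was 536 bp wide in KO D0 line 1 and 60 to 128 bp in the other 10 libraries. KO D1 MR lists held 48460 and 35201 peaks, against 61045 and 46664 in KO D1 CTL.

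Width and rank were tested among the 19 members called in all 18 libraries. Width is the log2 width of the strongest gene-end peak, centred in each library, and rank is the normal score of its place among the 5569 genes, and both were fitted with limma. For MR, 0 of 19 members passed the adjusted threshold of 0.05 in width, against 0.952% of all genes, and 0 of 19 had an unadjusted p under 0.05, against 15.5%. In rank, 0 of 19 passed, against 3.63% of all genes, and 5 had an unadjusted p under 0.05, Kmt2d, Smyd4, Prmt5, Kmt2e and Carm1, a share near the 24.8% of all genes. The median difference over the 19 members was 0.03 on the log2 scale in width and -0.12 in the normal score, beside -0.05 and 0.01 over all genes.

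Kmt2d, which methylates H3 lysine 4 at enhancers, showed the largest rank difference of any member. Its percentile was 15.1 and 23.7 in WT D1 CTL and 63.1 and 70.8 in WT D1 MR. At WT D5 it was 9.81 and 30.1 in CTL and 62.1 and 72.2 in MR, so the MR and CTL libraries of WT did not overlap on either day. In KO D1 the values were 62.5 and 35.3 in CTL and 55.9 and 67.6 in MR, and they overlapped. The rank score differed by 1.0002 (SE 0.268), with an adjusted p of 0.0519. With the replicate number or line as a block the adjusted p was 0.0122, and over all alternatives it ran from 0.00385 to 0.996, the latter without WT replicate 1. The difference between genotypes in the response at D1 was -0.98 (SE 0.657), with an adjusted p of 0.997. The peak that was ranked lies at the end of Kmt2d next to the end of Prkag1, an AMP-activated kinase subunit gene, and not at the RefSeq start of Kmt2d. That start had a peak of its own in 14 of 18 libraries, in both WT D5 MR and neither WT D5 CTL library.

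Smyd4 ranked lower in MR in each of the 3 contrasts. Its percentile was 91.5 and 86.2 in WT D1 CTL against 78.1 and 71.6 in WT D1 MR, 76.7 and 81.1 in WT D5 CTL against 54.4 and 59.4 in WT D5 MR, and 87.4 and 88.3 in KO D1 CTL against 84.4 and 57.3 in KO D1 MR. All 6 MR values lay below all CTL values of their own group. The rank score differed by -0.59 (SE 0.189), with an adjusted p of 0.0805, and 0.0329 with the replicate number or line as a block, in a range from 0.00685 to 0.996 over the alternatives. In both WT D5 CTL libraries and in KO D1 MR line 2 the ranked peak lay at the far end of the gene. Those values therefore compare different peaks. The peak near the end of Rpa1 is the one at the start of Smyd4, which was ranked in 14 of 18 libraries.

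Prmt5 and Kmt2e had the next largest rank differences and did not pass the adjusted threshold. Prmt5 was at 82.7 and 86.7 in WT D1 CTL against 93.1 and 93.2 in MR, 94.5 and 88.9 in WT D5 CTL against 97.7 and 93.5 in MR, and 95.4 and 82.2 in KO D1 CTL against 98.3 and 96.0 in MR. Its score differed by 0.48 (SE 0.185, adjusted p = 0.124, limma). Kmt2e, an H3 lysine 4 reader and KMT2 relative, was at 59.5 and 42.9 in WT D1 CTL against 29.6 and 27.1 in MR, and at 82.3 and 69.9 in WT D5 CTL against 48.8 and 48.4 in MR. In KO D1 it was at 30.0 and 40.4 in CTL and 47.4 and 38.7 in MR, and the groups overlapped. Its score differed by -0.39 (SE 0.161, adjusted p = 0.153, limma).

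**Figure D3:**
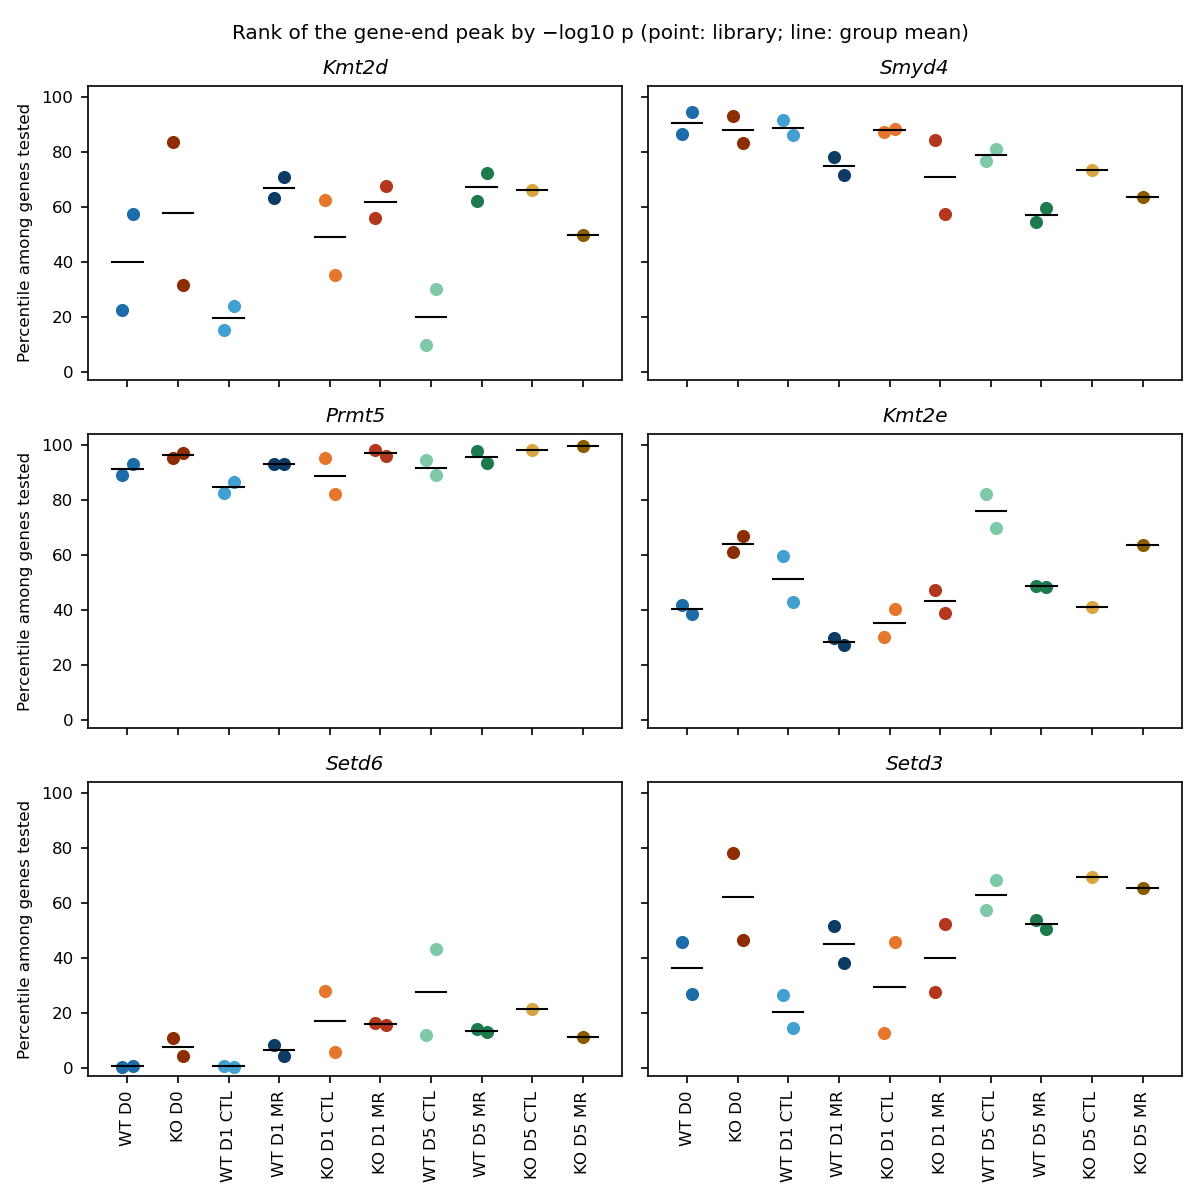
Each panel is 1 gene; the vertical axis gives the percentile of its gene-end peak by −log10 p among the genes called in all 18 libraries, points are libraries and horizontal lines group means. Kmt2d is higher in MR than in CTL in WT on both days, Smyd4 is lower, and Setd6 lies below 1 in WT D0 and WT D1 CTL.

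In width, the 4 members with the largest MR differences were Kmt2c, Prmt6, Setdb2 and Kmt2b. Kmt2c, a KMT2 enzyme that acts at enhancers, had peaks of 306 and 300 bp in WT D1 CTL and 1156 and 859 bp in WT D1 MR. Its widths overlapped at WT D5, with 294 and 161 bp in CTL and 240 and 683 bp in MR, and in KO D1, with 887 and 325 bp in CTL and 667 and 300 bp in MR. The mean difference was 0.55 on the log2 scale (SE 0.301), with an adjusted p of 0.412. Kmt2b peaks at WT D5 were 349 and 368 bp in CTL and 840 and 840 bp in MR, and over the 3 contrasts the difference was 0.26 (SE 0.137, adjusted p = 0.391, limma). Setdb2 peaks were 243 to 331 bp wide over the 18 libraries, and differed by -0.31 after centring (SE 0.171, adjusted p = 0.416, limma). Prmt6 peaks ranged from 74 to 1288 bp, and the difference was 0.33 (SE 0.620, adjusted p = 0.823, limma). In each of WT D1, WT D5 and KO D1 alone, 0 of 19 members passed in width, against 0.162%, 2.19% and 0.144% of all genes. The median gene-end peak was itself wider in WT D5 MR, at 336 and 330 bp, than in WT D5 CTL, at 218 and 215 bp.

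**Figure D4:**
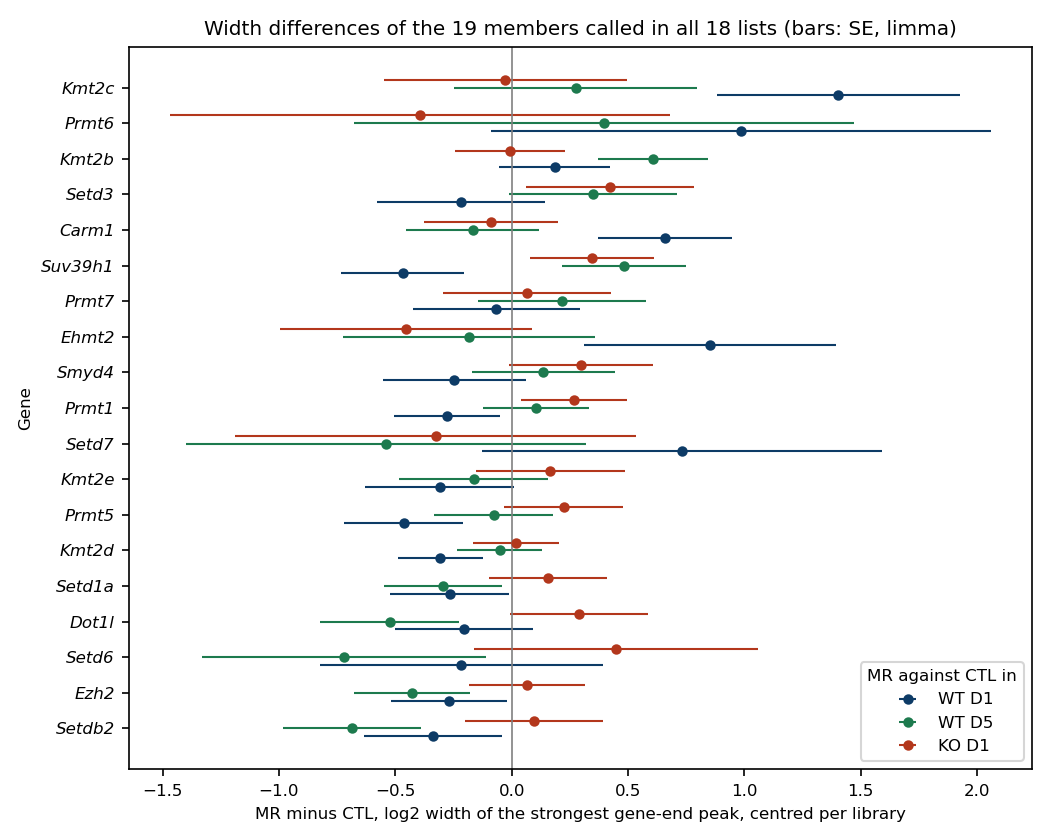
Points give the MR minus CTL difference in log2 peak width, centred per library, for the 19 members called in all 18 libraries, and bars the standard error from limma, separately for WT D1, WT D5 and KO D1. Kmt2c at WT D1 lies farthest to the right, and none of the 19 members passed the adjusted threshold.

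KO was compared with WT within D0, D1 CTL and D1 MR, and for calls also at D5. All genotype tests take libraries of the same 2 KO lines as separate. Their p-values therefore count repeats of 2 lines and not 8 independent KO samples. Loss of Setd2 and other differences of these lines from WT cannot be told apart. In calls, Smyd1 and Prmt2 were the members that could be tested. Smyd1 was called in 2 of 8 KO and 7 of 10 WT libraries (exact permutation p = 0.0417, adjusted p = 0.113). Prmt2, an arginine methyltransferase and nuclear receptor coactivator, was called in 5 of 8 KO and 9 of 10 WT libraries (exact permutation p = 0.306). It was missing from KO D0 line 2, KO D1 CTL line 2, WT D5 CTL replicate 1 and KO D5 MR line 2. Neither passed the threshold, which 3.19% of the 1631 testable genes did, and 37% of those genes had an unadjusted p under 0.05. KO D1 MR lacked the Ezh1 and Kmt2a peaks that both WT D1 MR libraries had, a split seen for 4.29% of all genes. With lists limited to 20000 peaks, Ezh1 was called in 2 of 18 libraries and Kmt2a in 1. There no member was lost, against 2.08% of all genes, and Setd6 was gained, against 0.975%. With whole lists, this split held in the other direction for 0 members and 0.176% of all genes. Between KO D0 and WT D0, 0 members split, against 0.282% of all genes gained and 0.832% lost, and between KO D1 CTL and WT D1 CTL 0 members, against 0.952% and 1.07%. Some muscle markers differed between genotypes in rank, in which Smyd1 could not be tested. The plan was to read markers only by presence of a gene-end peak, so their ranks are an addition. Des ranked lower in KO by 1.57 (adjusted p = 0.00733, limma) and Chrna1 by 0.68 (adjusted p = 0.0428, limma), where 4.56% of all genes passed in rank. Myog was called in 0 of 8 KO and 8 of 10 WT libraries and did not pass (adjusted p = 0.0635, exact permutation). Des, Chrna1 and Cdh15 were called in all 18 libraries, and Myod1 in 7 of 8 KO and 10 of 10 WT libraries. The rank of Cdh15 is not given here. The part of these markers in the Smyd1 values was not tested.

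Setd6, which methylates a subunit of NF-kappaB and other proteins, was the only member to pass in rank between genotypes, where 4.56% of all genes passed. There, 5 of 19 members had an unadjusted p under 0.05, against 21.4% of all genes. Its percentile was 0.39 and 0.49 in WT D0 and 10.96 and 4.28 in KO D0. In D1 CTL it was 0.66 and 0.39 in WT and 28.1 and 5.59 in KO, and in D1 MR 8.22 and 4.39 in WT and 16.4 and 15.5 in KO. The KO libraries lay above the WT libraries in each of the 3 conditions. The rank score was 1.07 higher in KO (SE 0.220, adjusted p = 0.0155, limma). It was 1.32 above WT in line 1 and 0.81 above WT in line 2, where the medians over 334 tested genes of chromosome 8 were 0.11 and 0.09. Its peaks were 414 and 97 bp wide in KO D1 CTL and 411 and 365 bp in WT D1 CTL, and the width difference was -0.76 (SE 0.351, adjusted p = 0.461, limma). The call did not hold when 1 WT replicate was left out, with an adjusted p of 0.849 without replicate 1 and 0.753 without replicate 2, each leaving 1 WT library a group. It was also lost when the peak was ranked in the whole list, where the difference was 0.46 (adjusted p = 0.577, limma).

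No member passed in width between genotypes, where 0.162% of all genes did and 2 of 19 members had an unadjusted p under 0.05, against 11.1% of all genes. Those were Ezh2, with a KO minus WT difference of 0.60 on the log2 scale (SE 0.144, adjusted p = 0.110, limma), and Prmt1, with a difference of -0.37 (SE 0.131, adjusted p = 0.310, limma). The interaction of restriction and genotype at D1 passed for 0 of 19 members in width and in rank, against 0.0898% and 0% of all genes. With an unadjusted p under 0.05 there were 0 of 19 in width, against 5.6% of all genes, and 1 of 19 in rank, Ezh2, against 4.22%.

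Between D1 and D5, several members had fewer calls, and none passed the test. Ezh1 was called in 6 of 8 D1 libraries and 0 of 6 at D5 (exact permutation p = 0.00926, adjusted p = 0.0669). Smyd3, a lysine methyltransferase with cytoplasmic substrates, was called in 7 of 8 and 1 of 6 (exact permutation p = 0.0370, adjusted p = 0.0711). Dnmt3b, the second de novo DNA methyltransferase, was called in 6 of 8 and 0 of 6 (exact permutation p = 0.0401, adjusted p = 0.0735). Smyd1 went from 6 of 8 to 2 of 6 (exact permutation p = 0.167, adjusted p = 0.204). Of all 1298 testable genes, 0% passed and 54.6% had an unadjusted p under 0.05. With all 20 libraries in the test, 5 of 7 testable members passed, as did 1138 of 1788 testable genes. Ezh1, Smyd3 and Dnmt3b had an adjusted p of 0.0414 and Kmt2a and Smyd5 one of 0.0436 (exact permutation). That test adds the lists of 644 and 1881 peaks on the D5 side.

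Within WT, 7 members were called in both D1 CTL libraries and neither D5 CTL library: Ezh1, Kmt2a, Dnmt3b, Setdb1, Smyd1, Smyd3 and Smyd5. This split was seen for 8.93% of all genes. In MR it held for Ezh1, Kmt2a and Dnmt3b, against 4.98% of all genes. Under the limit of 20000 peaks it held for 0 members in either medium, against 1.63% of all genes in CTL and 1.53% in MR. There each of these 7 members was called in 2 of 18 libraries or fewer, so most of them could not split. The lists of WT D5 CTL held 22465 and 20847 peaks and those of WT D1 CTL 60173 and 45545. With 20000 peaks, Setd1b, Setd6 and Prmt3 were gained at D5 in CTL, against 4.22% of all genes, and Setd6 in MR, against 1.66%. With whole lists no member was gained at D5, against 0.0971% of all genes in CTL and 0.208% in MR. From WT D0 to WT D5 CTL, Ezh1, Kmt2a, Setdb1, Smyd3 and Smyd5 were lost, a split of 8.03% of all genes, and 0 members were gained, against 0.222%. Dnmt3b was also the member gained between WT D0 and WT D1 CTL, a split of 0.929% of all genes, where 0 members and 0.268% of genes were lost. Between KO D0 and KO D1 CTL 0 members split, against 0.24% of all genes gained and 0.0231% lost. The Dnmt3b peaks were uneven, 48 and 58 bp wide in WT D1 CTL, 340 and 76 bp in WT D1 MR, 254 bp in KO D0 line 1, and 276 and 220 bp in the CTL and MR libraries of KO D1 line 1.

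The other members with incomplete calls were absent mostly from the shorter lists. Setdb1, an H3 lysine 9 methyltransferase, was missing from KO D0 line 2, both WT D5 CTL libraries and WT D5 MR replicate 2. Smyd3 was missing from KO D0 line 2, KO D1 MR line 2, both WT D5 CTL libraries, WT D5 MR replicate 1 and the KO D5 libraries of line 2. Prmt3, which methylates a ribosomal protein, was missing from KO D0 line 2, KO D1 MR line 2 and KO D5 MR line 2. Setd1b, an H3 lysine 4 enzyme, was missing from KO D0 line 2 and KO D1 MR line 2. Ehmt1, the partner of Ehmt2 in H3 lysine 9 methylation, lacked a peak only in KO D0 line 2. Smyd2 and Mettl14 lacked one only in KO D5 MR line 2. KO D0 line 2 held 30629 peaks, KO D1 MR line 2 held 35201 and KO D5 MR line 2 held 22062.

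In rank, Setd6 was again the member that passed between D5 and D1, where 6.88% of all genes passed and 3 of 19 members had an unadjusted p under 0.05, against 25.6%. Its percentile at WT D5 was 11.97 and 43.3 in CTL and 13.9 and 13.1 in MR, above the WT D1 values of the same medium. The score was 1.18 higher at D5 (SE 0.269, adjusted p = 0.0255, limma), in CTL alone 1.91 (SE 0.381, adjusted p = 0.0149, limma) and in MR alone 0.45 (SE 0.381, adjusted p = 0.741, limma), contrasts in which 4.63% and 0% of all genes passed. In base pairs the peak was 411 and 365 wide at D1 and 179 and 211 at D5 in CTL, and 410 and 420 at D1 and 189 and 174 at D5 in MR, while the centred width differed by -0.49 (SE 0.430, adjusted p = 0.494, limma). The call was lost without WT replicate 1 (adjusted p = 0.9999), without WT replicate 2 (adjusted p = 0.881) and in the ranks of the whole list, where the difference was 0.24 (adjusted p = 0.654, limma). In width 0 of 19 members passed, against 1.2% of all genes, and 4 had an unadjusted p under 0.05, against 24%. Between D0 and D1 CTL 0 of 19 passed in width and in rank, as for 0% of all genes, and 1 member in each had an unadjusted p under 0.05, Suv39h1 in width, against 6.32% of all genes, and Setd3 in rank, against 7.81%. No gene could be tested in calls there, since the smallest p the design allows is 0.0556.

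Inside the members, more than 1 kb from both ends, the 20 lists merged into 121 regions in 29 of the 37 genes, of 101352 regions in all. Only 8 of the 121 were called in all 18 libraries. Smyd3, a gene of 566.09 kb, held 23 regions, Dnmt3a 13 and Dot1l 9. For MR, 0 of the 2 testable member regions passed, against 0% of all testable regions, and 1 had an unadjusted p under 0.05, against 10.2%. For D5 against D1, 0 of 14 passed, also against 0%, and 5 had an unadjusted p under 0.05, against 50.1%. In each of the members that split between MR and CTL, the inner regions can be listed. Smyd1 held 5, of which chr6:71250857-71251418 was called in 16 of 18 libraries. Ezh1 held 4, of which chr11:101212094-101212203 and chr11:101221346-101221499 were each called in 15. Kmt2a held 2, called in 2 libraries each, and Smyd5 1, chr6:85443986-85444160, called in 3.

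Between genotypes, 7 of 22 testable member regions passed (exact permutation test, adjusted over 19646 testable regions), where 11.5% of all testable regions passed. An unadjusted p under 0.05 was found for 13 of the 22 and for 47.3% of all. Of these 7, 5 were called less often in KO, 3 of them in Dnmt3a, 1 in Setd3 and 1 in Smyd1. The other 2 were called more often in KO, in Setd7 and Smyd4. These p-values too count repeats of the same 2 KO lines.

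Dnmt3a held 3 of the 7 regions. The region chr12:3823448-3823898, centred 16.69 kb past the RefSeq start at 3806980, was called in 10 of 10 WT libraries and 0 of 8 KO libraries (exact permutation p = 0.000514, adjusted p = 0.0327). Peaks there were 164 and 197 bp wide in WT D0, 97 and 136 bp in WT D1 CTL, 362 and 154 bp in WT D1 MR, 132 and 163 bp in WT D5 CTL and 269 and 191 bp in WT D5 MR. The region chr12:3855759-3856664 was called in 10 of 10 WT libraries and, in KO, in the D1 CTL and D5 MR libraries of line 2. The region chr12:3806286-3806573, before the RefSeq starts, was called in 10 of 10 WT libraries and, in KO, in the D0 and D1 CTL libraries of line 2. Both had an adjusted p of 0.0403. Over all 13 regions, WT libraries held 4 and 7 calls at D0, 10 and 6 in D1 CTL, 11 and 7 in D1 MR, 4 and 4 in D5 CTL and 3 and 5 in D5 MR. KO line 1 held 0 at D0, in D1 CTL and in D1 MR, while line 2 held 1, 3 and 0, and then 0 in D5 CTL and 1 in D5 MR. Every WT library therefore held at least as many as the highest KO library. At D0, lists held 63530 and 30629 peaks in KO and 43058 and 49281 in WT. In D1 CTL they held 61045 and 46664 in KO and 60173 and 45545 in WT, and in D1 MR 48460 and 35201 against 69881 and 57676. Line 2 held 29963 in D5 CTL, against 22465 and 20847 in WT, and 22062 in D5 MR, against 39538 and 39263. The part of list length in the Dnmt3a calls was not tested.

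**Figure D5:**
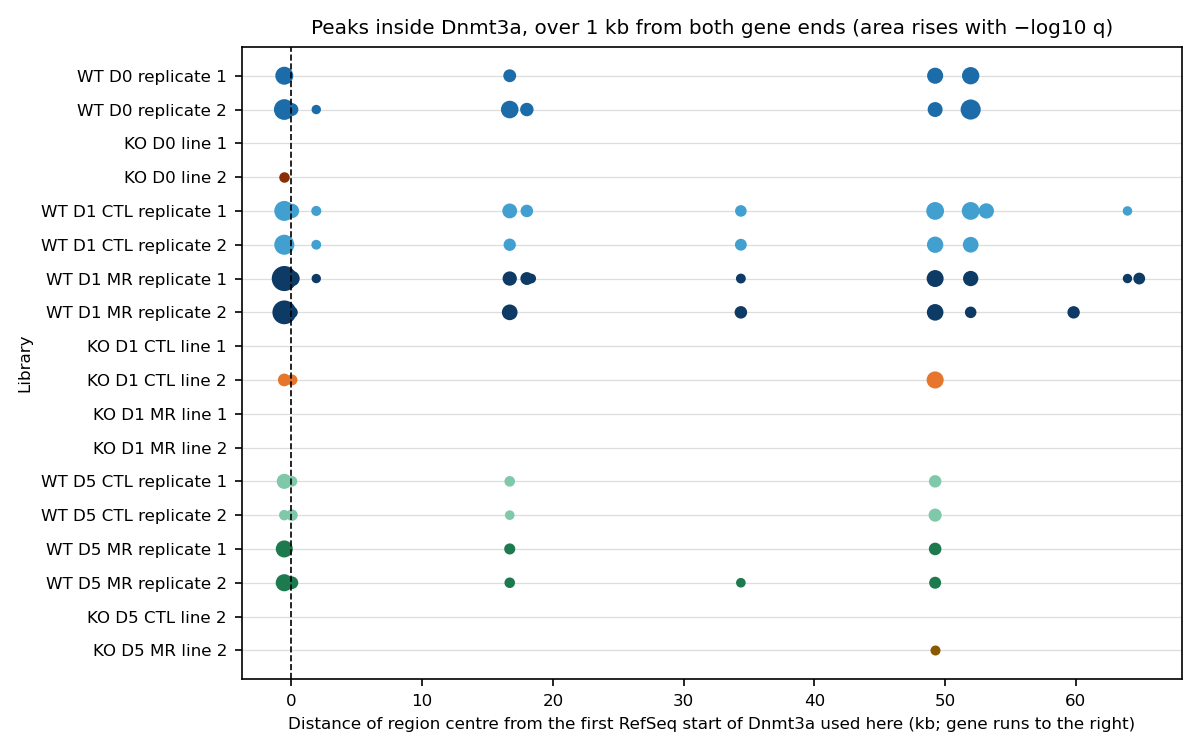
Each row is 1 of the 18 libraries of usual depth and each point a called region inside Dnmt3a, placed by the distance of its centre from the RefSeq start at 3806980 in kb, with the area rising with −log10 q. All 10 WT rows hold points at -0.55, 16.69 and 49.23 kb, and the 3 rows of KO line 1 are empty.

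Dnmt3a and Setd3 both lie on chromosome 12. There, 12.3% of testable regions were called less often in KO, against 6.86% over all chromosomes, and the median rank score of the 210 tested genes was -0.23 in KO line 1 and 0.04 in line 2 relative to WT. The part of this in the Dnmt3a and Setd3 regions was not tested. In Setd3, chr12:108135908-108136120 was called in 9 of 10 WT libraries and 0 of 8 from KO (exact permutation p = 0.00154, adjusted p = 0.0327). All 4 regions of Setd3 were absent from every KO library, but they were called in only 9, 6, 2 and 1 of 18 libraries. The one called in 6 did not pass (adjusted p = 0.0504, exact permutation), and those called in 2 and 1 could not be tested. The gene-end peak of Setd3, next to that of Ccnk, was called in all 18.

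The Smyd1 region chr6:71244035-71244208 was called in 8 of 10 WT libraries and 0 of 8 from KO (exact permutation p = 0.00154, adjusted p = 0.0327). It was missing from the 2 WT D5 CTL libraries. Its peaks ranged over 91 to 163 bp, with 147 and 132 bp in WT D1 CTL and 157 and 126 bp in WT D5 MR. In the other direction, the Setd7 region chr3:51553530-51553787 was called in 7 of 8 KO libraries and 1 of 10 WT libraries, and the Smyd4 region chr11:75355507-75355780 in 6 of 8 KO and 0 of 10 WT libraries. Setd7 methylates H3 lysine 4 and other proteins. Both regions had an adjusted p of 0.0403. When a peak had to cover 50% of a region, 0 of 23 testable member regions passed, as for all regions. An unadjusted p under 0.05 was found for 9 of them and for 7844 of all 21327 testable regions. No member region passed without WT replicate 1 or without WT replicate 2, as for all regions. Each leaves 1 WT library a group. Without KO line 1 or line 2, which leaves 1 KO library a group or fewer, the count passing moved in members and over all regions.

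The partners and relatives of the members were read from 3 lists. Of 28 complex partners, such as Polycomb and WDR5 complex subunits, 12 could be tested in width and rank, of 30 other methyltransferases 15, and of 22 demethylases 10. For MR over the 3 contrasts, 0 partners and 0 demethylases passed in either measure (limma), while 2 and 4 had an unadjusted p under 0.05 in width and 5 and 3 in rank. In WT D5 alone, where 2.37% of all genes passed in rank, the Polycomb partner Mtf2 fell by 2.12 (SE 0.487, adjusted p = 0.0414, limma). Of the other methyltransferases, Kmt5c, an H4 lysine 20 enzyme, and Pemt, which makes phosphatidylcholine, rose in rank, by 0.96 (SE 0.195, adjusted p = 0.0320, limma) and 0.65 (SE 0.164, adjusted p = 0.0487, limma). These are 2 of the 15 tested, where 3.63% of all genes passed. The median rank differences for MR were 0.04 in partners, -0.14 in the other methyltransferases and 0.25 in demethylases, beside 0.01 over all genes. Between D5 and D1, Rbm15, of the m6A writer complex, rose by 0.82 (SE 0.205, adjusted p = 0.0337, limma) and Fto, an RNA demethylase, by 1.16 (SE 0.291, adjusted p = 0.0342, limma), and no other gene of the 3 lists passed in this contrast. That is 1 of 12 partners and 1 of 10 demethylases, where 6.88% of all genes passed. Between genotypes, 0 genes of the 3 lists passed in width, rank or calls, where 0.162%, 4.56% and 3.19% of all genes passed.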

How the data were processed

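Accessibility was measured by ATAC-seq in 20 C2C12 libraries, tagmented with a commercial kit and amplified with 10 PCR cycles per the labels' protocols. The authors deposited 1 broadPeak list per library, with no pooled list, on build GRCm38 per the submitters' processing notes. The aligner, the shift of reads for the transposase, the handling of duplicates and the peak caller are not given in the sources used here. Each deposited peak carries the authors' own score, fold enrichment (a ratio), −log10 p-value and −log10 q-value, used here for describing, ranking and filtering inside 1 list at a time. The lowest −log10 q was 1.00. Read depth is unknown, so list length, 644 to 69881 peaks, is the measure of precision given.

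Gene ends came from RefSeq (GRCm38.p6), and promoter windows from the same source for 31 of 37 members. The members and lists were chosen with earlier results of these data known. A gene was called when a peak lay within 1 kb of either end, and its strongest peak was the one with the highest −log10 p. Calls were tested with two-sided exact permutation tests (Python 3.11.15, numpy 2.4.6) within strata of genotype, day and medium, adjusted by Benjamini-Hochberg over genes or regions that could reach a p of 0.05. Width and rank were fitted with limma 3.58.1 in R 4.3.3 over the genes called in all 18 libraries, with a mean for each group. On simulated data, limma on width and the permutation test on regions recovered changes planted between genotypes. None were planted for MR or day, and libraries were drawn independently, unlike those of the same KO line.

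All 37 members were accounted for. Values are given library by library for members called in some of the 18 libraries, for members past the threshold in width or rank, and for the 4 with the largest MR difference in each. KO numbers mark the same line in every group: deviations of same-numbered KO libraries correlated at 0.21 to 0.47, and those of WT at -0.07 to 0.10, where only the number is shared. Alternatives covered windows, q and list-length limits, leaving out libraries and a block for replicate number or line. Windows at RefSeq starts were added after seeing the data. Some markers of other cell types are not reported here.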

Additional observations from a re-analysis of the deposited data

Results flagged for a closer look

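Setd3 ranked higher in MR than in CTL at WT D1 and lower at WT D5, with every library on its own side. The group means differed by 24.7 percentile points at D1, from 26.3 and 14.4 to 51.8 and 38.3, and by -10.66 points at D5, from 57.3 and 68.4 to 54.0 and 50.4. The difference between the days was not tested. This pattern was looked for at all 19 members tested, in rank and in width, and was found only for Setd3 in rank. How many of all genes show it was not counted.

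The D5 MR library of KO line 1, left out of the tests, held gene-end peaks at 3 members, and the D5 CTL library of the same line at 0. They were Prmt5 (166 bp), Smyd4 (93 bp) and Kmt2e (77 bp), in a list of 1881 peaks against 644.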

How the results depend on the processing

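Peak lists of unequal length limit what absence of a call can show. With the 20000 strongest peaks of each list, each of the 6 counts of members that split between 2 groups became 0. The members they had counted were then called in 2 of 18 libraries or fewer, so most could not split. In the opposite direction, Setd1b, Setd6 and Prmt3 were gained in WT D5 CTL and Setd6 in WT D5 MR, each against D1. Setd6 was also gained in KO D1 MR against WT D1 MR, and Kmt2c was lost in WT D5 MR against WT D5 CTL. The count passing in rank was 1 for MR and 0 for genotype, over 15 members tested. Those leave out Setd6 (called in 10 of 18 libraries there), so its call was not retested. With all 20 libraries, 5 of 7 testable members passed in calls between D5 and D1, against 1138 of 1788 testable genes. Of 14 testable inner regions 11 passed there, against 10687 of all 16153 testable regions. In rank, limma with trend and robust estimation gave 1 member for MR, ranks in the whole list 0 for genotype and 2 for D5 against D1, and ranks by fold enrichment 2 for D5 against D1. In width, 1 member passed for genotype with missing values allowed, and 1 for D5 against D1 both without centring and with the total length of end peaks. A 50% overlap left 0 inner regions between genotypes. With the replicate block, 2 members passed in rank for MR (Kmt2d, Smyd4) and 2 for D5 against D1 (Kmt2e, Setd6). For genotype it gave 3 (Kmt2d, Setd6, Setd7), but with the line nested in genotype that fit sets KO line 1 against WT replicate 1 and is no test of genotype. Setd7 differed from WT by -1.06 in line 1 and 0.63 in line 2. The block changed no count in width, and no member could be tested with it in calls.

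Leaving out each replicate in turn gave 0 to 5 members in rank for MR, 0 to 7 for genotype, 0 to 5 for D5 against D1 and 0 to 1 for D1 against D0. In width the count moved for genotype and for D5 against D1, and in calls for D5 against D1. For inner regions it moved in genotype and in D5 against D1. In each of these the count over all genes or regions moved too. Where 1 library was left in a group, it was assumed to vary like the others. Over all genes, the counts in rank ran from 0 to 1656 for MR, 0 to 1687 for genotype and 0 to 1648 for D5 against D1. The width difference of Prmt6 for MR ran from -0.34 without KO line 1 to 1.0036 without KO line 2, and was -0.21 without WT replicate 2. Counts of 0 where no member could be tested, as in calls for MR and for D1 against D0, say nothing of stability. Except where fewer genes or libraries were tested, the cause of a change was not tested.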
